A study of Homo sapiens with 6 samples.

Results

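Kinesins are motor proteins that step along microtubules, and the 42 human genes examined here are those whose symbol is KIF followed by a number, with at most one letter A, B or C after it, together with KIFC1, KIFC2 and KIFC3. They were picked by symbol from a table of 58735 genes, and no measured value enters that rule. The family and its classes were, however, chosen with earlier results of these data known. The RNA came from HaCaT, an immortalised human keratinocyte line and so a model of the epidermis. There were 3 control libraries and 3 from cells exposed to ultraviolet B (UVB), labelled 50 mJ with no area stated. Irradiated cells stayed in culture for 24 h before lysis, per the labels' protocols. All 6 samples are of the same cell line, and no other genotype or agent is named. Whether the replicates are independent cultures is not said, so every p-value reflects only the spread among these samples, which may be technical.

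Each kinesin couples the splitting of ATP to movement through a motor domain. In interphase, transport kinesins carry vesicles, organelles and protein complexes, most of them towards the growing ends of microtubules at the cell periphery. In dividing cells another set, the mitotic kinesins, builds the spindle, moves and aligns chromosomes and organises the central spindle on which cytokinesis depends. The mRNAs of many mitotic kinesins accumulate towards G2 and mitosis. The remaining kinesins include some that shorten or regulate microtubules and others that work at centrioles and cilia. The family was therefore divided by textbook role into 14 mitotic, 15 transport and 13 other kinesins.

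Mitotic kinesins were lower after UVB, while transport kinesins were divided. Levels are in FPKM, the reads on a gene scaled by its exon length and by the reads assigned in the library. Only genes averaging 0.5 FPKM or more across all libraries entered the test. Of 12 mitotic kinesins tested, 10 fell, none rose and 2 did not pass, where 11.0% of all 14921 genes tested were called lower (adjusted p under 0.05 in limma, fitted on log2(FPKM + 1) with Benjamini-Hochberg adjustment). Of 11 transport kinesins tested, 4 rose and 1 fell, where 17.0% of all genes were called higher, and of 6 other kinesins tested 2 rose and none fell. Counted at an unadjusted p under 0.05 or with edgeR, mitotic kinesins higher and other kinesins lower were again 0. With edgeR on recovered reads, or with median rescaling, 2 transport kinesins were higher and 2 lower. The median log2 fold change on that scale was -0.35 over the tested mitotic kinesins, -0.0076 over the transport kinesins and 0.17 over the others, beside 0.042 over all genes tested. These medians describe the genes that passed the expression filter, and no test was made between the classes. In bulk RNA, fewer cells in mitosis and less kinesin RNA per cell cannot be told apart.

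Promoter sequences of selected kinesins are shown first, because many mitotic genes share short promoter elements. The part of such elements in the changes after UVB was not tested. The element TTTGAA, known as the cell cycle genes homology region (CHR), and the CCAAT box are well described in promoters of genes expressed in G2 and mitosis. Windows from 250 bases before to 50 bases after each RefSeq start site (GRCh38.p14) were searched on both strands for TTTGAA and for CCAAT, and the variant TTTAAA was added after the KIF20A window had been read. No matches overlapped one another in the kinesin windows. A window was found for 34 of the 42 kinesins. The following windows are those of the mitotic kinesins with the largest falls, of KIF15, which did not pass, and of the transport kinesin KIF3C, which rose. They run 5′ to 3′ on the strand of the gene, with each match to a searched motif in capitals.
KIF20A, chr5:138178862-138179161, plus strand: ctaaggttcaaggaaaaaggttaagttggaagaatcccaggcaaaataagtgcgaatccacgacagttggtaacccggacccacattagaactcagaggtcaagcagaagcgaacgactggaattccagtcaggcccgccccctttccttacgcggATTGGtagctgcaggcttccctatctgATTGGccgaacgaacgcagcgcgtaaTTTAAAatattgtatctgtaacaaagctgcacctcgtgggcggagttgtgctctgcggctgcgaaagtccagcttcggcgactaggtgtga
KIF14, chr1:200620702-200621001, minus strand: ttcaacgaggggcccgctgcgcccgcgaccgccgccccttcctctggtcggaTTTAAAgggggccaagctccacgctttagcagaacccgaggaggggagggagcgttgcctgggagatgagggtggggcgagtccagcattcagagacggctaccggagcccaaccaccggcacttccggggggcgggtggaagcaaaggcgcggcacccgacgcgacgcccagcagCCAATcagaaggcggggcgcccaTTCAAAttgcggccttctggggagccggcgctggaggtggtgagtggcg
KIF4A, chrX:70289854-70290153, plus strand: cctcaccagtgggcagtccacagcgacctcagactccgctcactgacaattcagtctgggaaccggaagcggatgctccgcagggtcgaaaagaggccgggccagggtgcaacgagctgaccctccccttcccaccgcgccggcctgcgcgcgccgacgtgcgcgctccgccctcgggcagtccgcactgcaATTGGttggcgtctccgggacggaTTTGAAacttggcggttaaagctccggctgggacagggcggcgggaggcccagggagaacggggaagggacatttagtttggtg
KIF18A, chr11:28108107-28108406, minus strand: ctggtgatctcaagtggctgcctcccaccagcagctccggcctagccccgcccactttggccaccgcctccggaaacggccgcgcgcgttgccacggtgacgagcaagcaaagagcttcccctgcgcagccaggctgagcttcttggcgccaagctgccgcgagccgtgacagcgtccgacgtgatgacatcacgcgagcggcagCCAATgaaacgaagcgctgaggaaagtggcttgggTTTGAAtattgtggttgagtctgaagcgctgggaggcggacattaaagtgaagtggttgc
KIF15, chr3:44761544-44761843, plus strand: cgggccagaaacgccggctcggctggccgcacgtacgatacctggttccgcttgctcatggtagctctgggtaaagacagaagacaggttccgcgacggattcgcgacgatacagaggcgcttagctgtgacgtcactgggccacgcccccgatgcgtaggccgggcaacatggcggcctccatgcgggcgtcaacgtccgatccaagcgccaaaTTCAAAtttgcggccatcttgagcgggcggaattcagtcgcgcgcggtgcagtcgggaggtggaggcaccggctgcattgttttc
KIF3C, chr2:25982448-25982747, minus strand: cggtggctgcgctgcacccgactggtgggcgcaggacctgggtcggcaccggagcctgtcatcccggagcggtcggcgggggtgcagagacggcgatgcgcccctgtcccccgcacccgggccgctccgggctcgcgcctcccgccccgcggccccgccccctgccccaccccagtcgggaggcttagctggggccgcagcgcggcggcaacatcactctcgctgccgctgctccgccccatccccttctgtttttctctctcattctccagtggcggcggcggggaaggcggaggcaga
Some genes have more than 1 start site and window. TTTGAA lay in 10 of 15 windows of mitotic kinesins, 1 of 16 of transport kinesins and 0 of 12 of other kinesins, and in 15.2% of all 35116 windows. CCAAT lay in 11, 5 and 4 of those windows, and in 34.6% of all windows. Among the mitotic kinesins with a match, KIF4A carried CCAAT, read as ATTGG, 58 bases before its start and TTTGAA 34 bases before it, and KIF18A carried CCAAT 45 bases and TTTGAA 10 bases before. KIF20A, the member with the deepest fall, had no TTTGAA in its window. It had ATTGG at 94 and 67 bases and TTTAAA at 41 bases before its start, and TTTAAA lay in 4 of 15 mitotic windows and in 12.2% of all windows. KIF15 had TTTGAA, read as TTCAAA, 35 bases before its start and no CCAAT. KIF2C, which was called lower, had TTTAAA 3 bases before its start and neither TTTGAA nor CCAAT. KIF3C had no match to any of these letters. A match is a string of letters in this window and not a shown binding site.

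**Figure D1:**
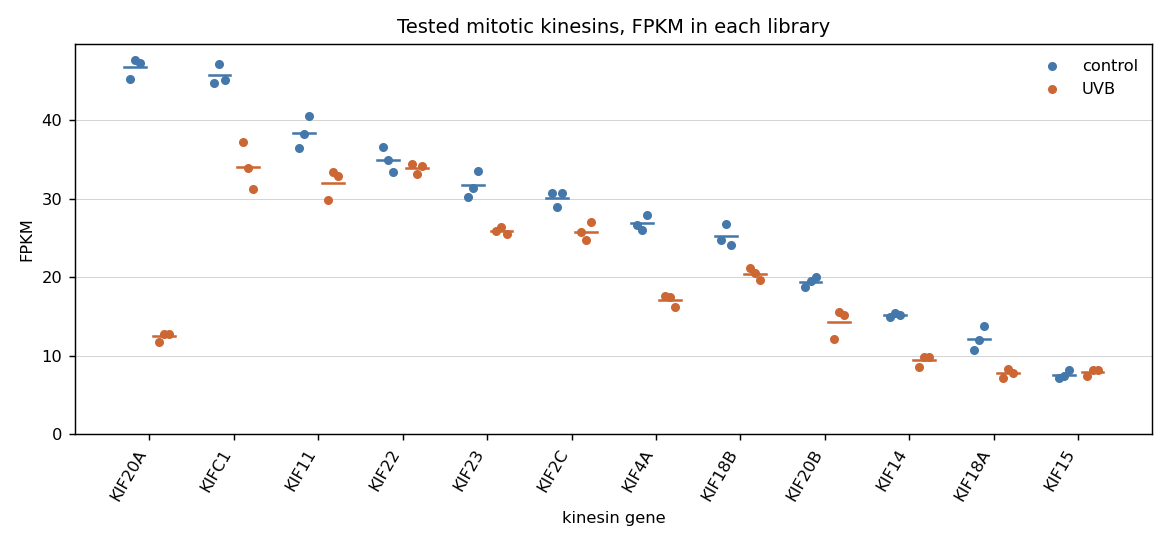
FPKM of the 12 tested mitotic kinesins (x axis, ordered by control mean) in each library (y axis, FPKM), with 3 control and 3 UVB points a gene and a line at each group mean. KIF20A fell from the highest mitotic level in controls to 12.5 FPKM, and only KIF22 and KIF15 have groups that overlap.

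The mitotic kinesins with the 3 largest falls, KIF20A, KIF14 and KIF4A, act on the central spindle or in cytokinesis, and subgroups of mitotic kinesins were not compared by a test. KIF20A (ENSG00000112984, chromosome 5, 138178719 to 138187715, GRCh38), which brings the chromosomal passenger complex to the central spindle, measured 45.3, 47.7 and 47.3 FPKM in controls and 11.8, 12.8 and 12.8 FPKM after UVB. Every UVB library lay far below every control, and the means of 46.8 ± 1.27 and 12.5 ± 0.569 FPKM (SD, n = 3 each) differed 3.75-fold. The change on the log2 scale was -1.83 ± 0.0493 (SE, limma adjusted p = 4.61e-05). Of the 14921 genes tested, 16 had a more negative value than KIF20A on log2(FPKM + 1). That scale shrinks the changes of genes at low FPKM, so the rank holds for this scale only. About 5.1% of the exon length of KIF20A is shared with genes on the opposite strand, BRD8 and CDC23, and the strand setting of the counting is not given.

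KIF4A, a chromokinesin that also acts on central spindle microtubules with PRC1, measured 26.7, 26 and 28.0 FPKM in controls and 17.6, 17.5 and 16.2 FPKM after UVB. Its change on the log2 scale was -0.62 ± 0.0519 (SE, limma adjusted p = 0.0006), with no overlap of the groups. Its intronless near-copy KIF4B was listed at 0.129 FPKM or less in every library, and reads that fit both copies are uncertain. KIF14, which works with citron kinase in cytokinesis, measured 14.9, 15.4 and 15.2 FPKM in controls and 8.58, 9.88 and 9.80 FPKM after UVB, again without overlap. Its change on the log2 scale was -0.64 ± 0.0629 (SE, limma adjusted p = 0.00104).

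The other kinesins of this group moved less. KIF20B, which acts late in cytokinesis, measured 18.8, 19.5 and 20 FPKM in controls and 12.2, 15.6 and 15.2 FPKM after UVB. KIF20B fell by 0.42 on the log2 scale (limma adjusted p = 0.0184), a call that was lost without control replicate 2 or 3 (adjusted p = 0.0525 and 0.0575). KIF23, the motor subunit of centralspindlin, measured 30.2, 31.4 and 33.5 FPKM in controls and 25.9, 26.4 and 25.5 FPKM after UVB. KIF23 fell by 0.28 on the log2 scale (limma adjusted p = 0.00895), with every UVB library below every control.

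KIF20A and KIF23 act on the same central spindle, yet they fell by unequal amounts. The ratio of KIF20A to KIF23 FPKM was 1.5, 1.52 and 1.42 in controls and 0.457, 0.486 and 0.501 after UVB. This is a log2 difference of -1.62 between the groups (exact permutation, 2-sided p = 0.1, the smallest that 3 against 3 samples allow). Altogether 3 such ratios were tested, on pairs chosen after their values had been seen, and each had an exact permutation p of 0.1, before and after Benjamini-Hochberg adjustment.

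Among the kinesins of spindle assembly, 2 of the 3 tested fell, where 11.0% of all genes tested were called lower. KIF11, the plus-end motor that pushes the spindle poles apart, measured 36.5, 38.2 and 40.5 FPKM in controls and 29.9, 33.4 and 32.9 FPKM after UVB. KIF11 fell by 0.25 on the log2 scale (limma adjusted p = 0.0252), but with control replicate 2 or 3, or UVB replicate 1 or 3, left out it did not pass (adjusted p = 0.0622, 0.0664, 0.067 and 0.0576). KIFC1, a minus-end motor that focuses spindle poles, measured 44.8, 47.2 and 45.2 FPKM in controls and 37.2, 33.9 and 31.2 FPKM after UVB, a fall of 25.4%.

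The groups of both genes were apart. KIFC1 had a log2 fold change of -0.42 ± 0.0681 (SE, limma adjusted p = 0.00664), and 12.7% of its exon length is shared with an opposite-strand pseudogene, RPL12P1. KIF15, which can stand in for KIF11 in keeping the spindle bipolar, measured 7.11, 7.37 and 8.19 FPKM in controls and 7.41, 8.18 and 8.24 FPKM after UVB, so that the groups overlapped. Its log2 fold change was 0.06, with a 95% interval from -0.11 to 0.24 (limma adjusted p = 0.539). The KIF11 to KIF15 ratio went from 5.14, 5.18 and 4.94 in controls to 4.04, 4.08 and 3.99 after UVB, without overlap, a log2 difference of -0.334 (exact permutation p = 0.1).

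Of 4 kinesins that align chromosomes or shorten microtubules in mitosis, 3 fell, where 11.0% of all genes tested were called lower. KIF18A, which damps chromosome movements at the spindle equator, measured 10.7, 12.0 and 13.8 FPKM in controls and 7.21, 8.37 and 7.75 FPKM after UVB, with a log2 fold change of -0.58 ± 0.0978 (SE, limma adjusted p = 0.00719). KIF18B, which limits astral microtubules, measured 24.8, 26.8 and 24.1 FPKM in controls and 21.2, 20.5 and 19.7 FPKM after UVB, a fall of 18.8%. All UVB libraries of both genes lay below all controls, and KIF18B passed with a log2 fold change of -0.29 (limma adjusted p = 0.0116).

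KIF2C, a microtubule depolymerase that corrects wrong kinetochore attachments, measured 30.7, 28.9 and 30.8 FPKM in controls and 25.8, 24.7 and 27.0 FPKM after UVB. It fell by 0.22 on the log2 scale (limma adjusted p = 0.0243), but it did not pass with control replicate 1 or 3, or UVB replicate 1 or 2, left out (adjusted p = 0.0737, 0.0664, 0.0704 and 0.0718). KIF22, a chromokinesin that pushes chromosome arms outwards, measured 36.6, 34.9 and 33.4 FPKM in controls and 34.5, 33.1 and 34.2 FPKM after UVB, with overlapping groups. The log2 fold change of KIF22 was -0.04, with a 95% interval from -0.16 to 0.07 (limma adjusted p = 0.557), and 13.0% of its exon length is shared with an opposite-strand gene. The 2 mitotic kinesins that were not tested were KIF4B and KIF2B, which was listed at 0 in every library.

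**Figure D2:**
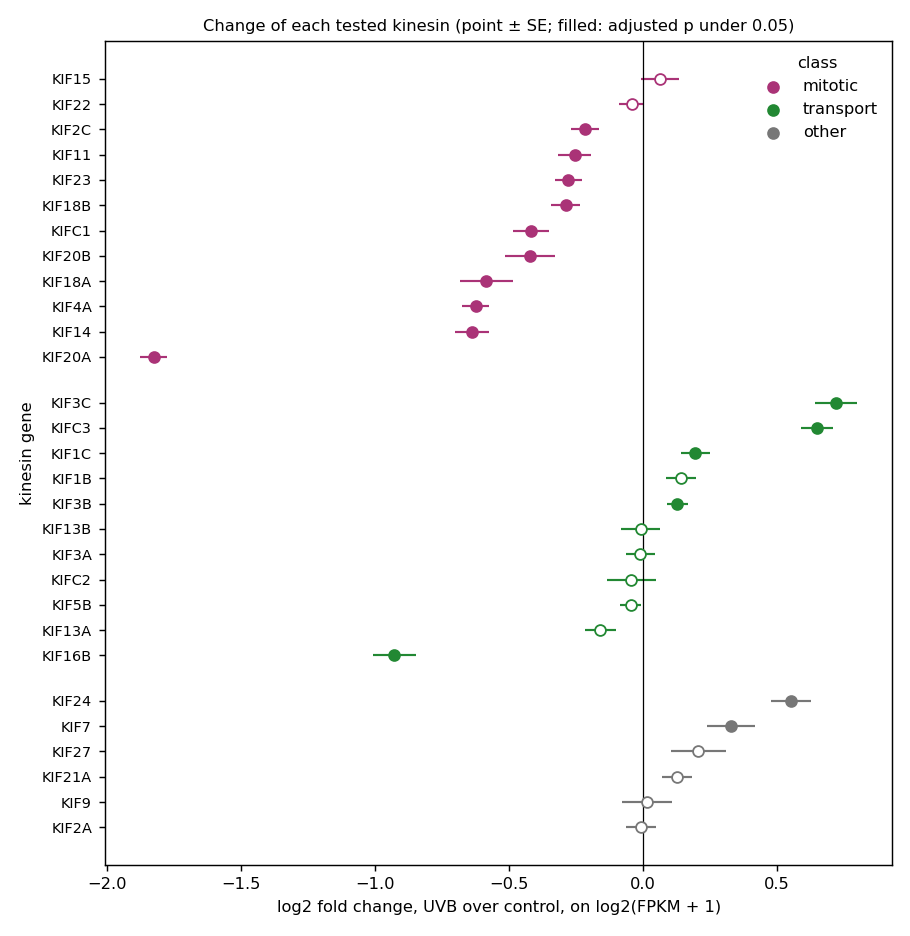
Log2 fold change of UVB over control on log2(FPKM + 1) (x axis) for each of the 29 tested kinesins (y axis), by class, as the limma estimate ± SE. Filled points have an adjusted p under 0.05, and 10 mitotic, 5 transport and 2 other kinesins are filled.

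Together the mitotic kinesins summed to 327.3, 335.3 and 340.1 FPKM in controls and 239.3, 244.3 and 240.6 FPKM after UVB. They made up 64.3%, 64.1% and 65.1% of all kinesin FPKM in controls and 54.6%, 54.9% and 54.4% after UVB. The loss did not rest on KIF20A alone, since the sum without KIF20A was 282.0, 287.6 and 292.7 FPKM in controls and 227.5, 231.5 and 227.8 FPKM after UVB. In the order of mean levels over all 42 kinesins, KIF20A went from second to rank 12, whereas KIFC1 held rank 3 and KIF11 rank 5 in both groups. KIF1C went from rank 4 to rank 1, at 43.9 ± 2.75 and 50.4 ± 1.14 FPKM, ahead of KIF5B.

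Transport kinesins were more varied. KIF5B, the widely expressed heavy chain of conventional kinesin, had the highest control mean of all kinesins, with 46.2, 46.8 and 49.0 FPKM, and measured 45.1, 46.4 and 46.1 FPKM after UVB. In control replicate 2, KIF20A and KIFC1 were above KIF5B. Its log2 fold change was -0.04, with a 95% interval from -0.14 to 0.05 (limma adjusted p = 0.451). The neuronal paralogs KIF5A and KIF5C were near 0, at no more than 0.0851 FPKM in any library.

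KIF3C, a partner of KIF3A in one form of kinesin-2 (ENSG00000084731, chromosome 2, 25926596 to 25982749, GRCh38), had the largest rise among the kinesins tested. It measured 1.45, 1.42 and 1.19 FPKM in controls and 3.08, 2.78 and 2.76 FPKM after UVB, so every UVB library stood above every control by a wide margin. The means differed 2.13-fold, and the change on log2(FPKM + 1) was 0.72 ± 0.0776 (SE, limma adjusted p = 0.00142). The edgeR count test on recovered reads, which adds no FPKM to the values, gave 1.04 for KIF3C.

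KIF3A and KIF3B, chains of the kinesin-2 known for intraflagellar transport, differed less from their controls than KIF3C did. KIF3B, the other partner of KIF3A, measured 28.5, 29.7 and 29.4 FPKM in controls and 31.9, 32.3 and 31.9 FPKM after UVB, and passed by a narrow margin at a log2 fold change of 0.13 (limma adjusted p = 0.0492). This call ended under 12 of 13 alternatives, with adjusted p-values from 0.0458 to 0.27 over all 13, among them median rescaling (adjusted p = 0.189) and the loss of any 1 library. KIF3A itself measured 4.54, 4.32 and 4.67 FPKM in controls and 4.44, 4.58 and 4.41 FPKM after UVB, with overlapping groups. KIF3C stood at 0.0507, 0.0477 and 0.0404 of the KIF3B level in controls and at 0.0966, 0.0862 and 0.0864 of it after UVB, a log2 difference of 0.959 (exact permutation p = 0.1). KIF3C thus remained small beside KIF3B in FPKM, and it was below KIF3A in all 6 libraries. Against KIF3A the gap narrowed, with KIF3C means of 1.35 FPKM in controls and 2.87 FPKM after UVB beside 4.51 and 4.48 FPKM for KIF3A.

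KIFC3, a minus-end motor found in epithelial cells at adherens junctions and in apical transport (ENSG00000140859, chromosome 16, 57758217 to 57863053, GRCh38), also rose. It measured 7.62, 7.75 and 6.91 FPKM in controls and 12.8, 12.1 and 11.8 FPKM after UVB, with groups well apart. Its change on the log2 scale was 0.65 ± 0.0604 (SE, limma adjusted p = 0.000838), a rise of 64.7% in mean FPKM. KIFC2, a minus-end motor described in neurons, overlapped between groups at 7.50, 7.17 and 6.09 FPKM in controls and 6.40, 6.32 and 7.34 FPKM after UVB. KIF1C, a fast motor of vesicles and integrin transport, measured 44.0, 46.6 and 41.1 FPKM in controls and 50.8, 49.1 and 51.3 FPKM after UVB. KIF1C passed at a log2 fold change of 0.20 (limma adjusted p = 0.0403), and that call ended under 10 of 13 alternatives, including edgeR (adjusted p = 0.088) and each loss of a library except control replicate 2 (adjusted p up to 0.119).

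KIF16B, which moves early endosomes (ENSG00000089177, chromosome 20, 16272104 to 16573434, GRCh38), was the transport kinesin that fell. It measured 2.43, 2.83 and 2.46 FPKM in controls and 0.839, 0.982 and 0.808 FPKM after UVB, so that the highest UVB library was below the lowest control. The means differed 2.93-fold, at a log2 fold change of -0.93 ± 0.0809 on log2(FPKM + 1) (SE, limma adjusted p = 0.000692), and -1.60 with edgeR on recovered reads. KIF13A, which carries recycling endosomes, measured 6.96, 7.53 and 7.62 FPKM in controls and 6.56, 6.74 and 6.21 FPKM after UVB. Its groups did not overlap, but its log2 fold change of -0.16 did not pass in limma (adjusted p = 0.0939), while it passed with edgeR, quantile normalization and median rescaling (adjusted p = 0.0283, 0.0345 and 0.0467). KIF13B and KIF1B had log2 fold changes of -0.0076 and 0.14 and did not pass.

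**Figure D3:**
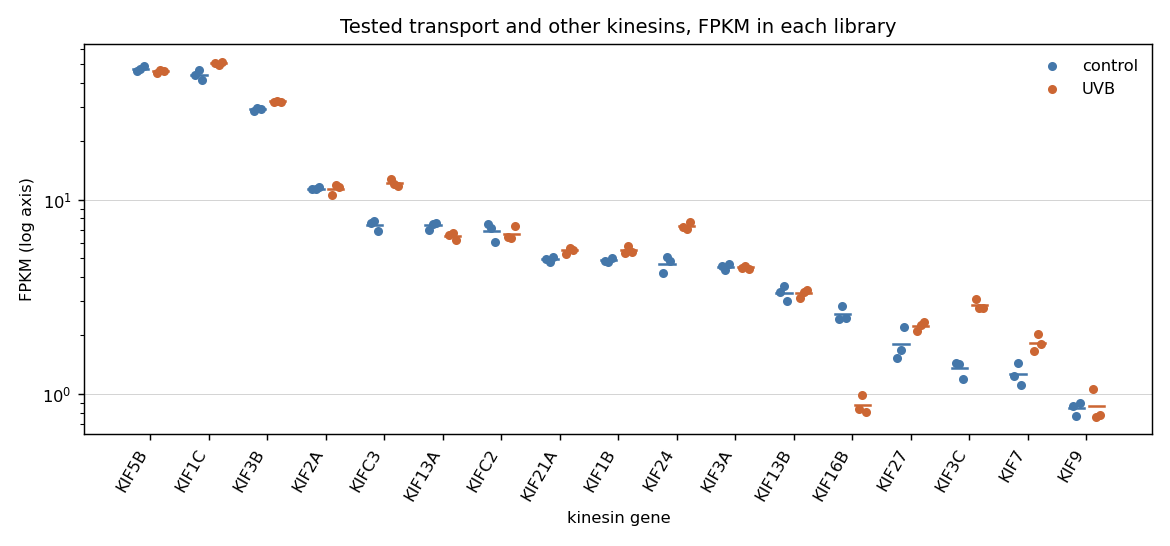
FPKM of the 11 transport and 6 other kinesins tested (x axis, ordered by control mean) in each library (y axis, FPKM on a log axis), with a line at each group mean. KIF3C, KIFC3, KIF24 and KIF7 are among the genes whose groups lie apart, higher after UVB, as are KIF1C, KIF3B, KIF1B and KIF21A. KIF16B drops from 2.57 to 0.877 FPKM, and the groups of KIF13A also lie apart, lower after UVB.

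KIF16B spans 301.3 kb of the genome, the longest span among the tested kinesins. Across all genes tested, 23.2% of 2041 genes spanning at least 100 kb were called lower, against 9.03% of 12880 shorter genes, and the median log2 fold changes were -0.017 and 0.052. Over the 29 tested kinesins, span and log2 fold change had a Spearman rho of 0.0966, given as a description over genes that share the same libraries. KIF20A, with the deepest fall, spans 9.0 kb, and 9 of the 10 tested mitotic kinesins under 100 kb were lower. Other kinesins over 100 kb, namely KIF13A, KIF13B, KIF1B, KIF2A, KIF21A and KIF15, did not pass, KIF4A fell and KIFC3 rose. The part of span in the fall of KIF16B was not tested.

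**Figure D4:**
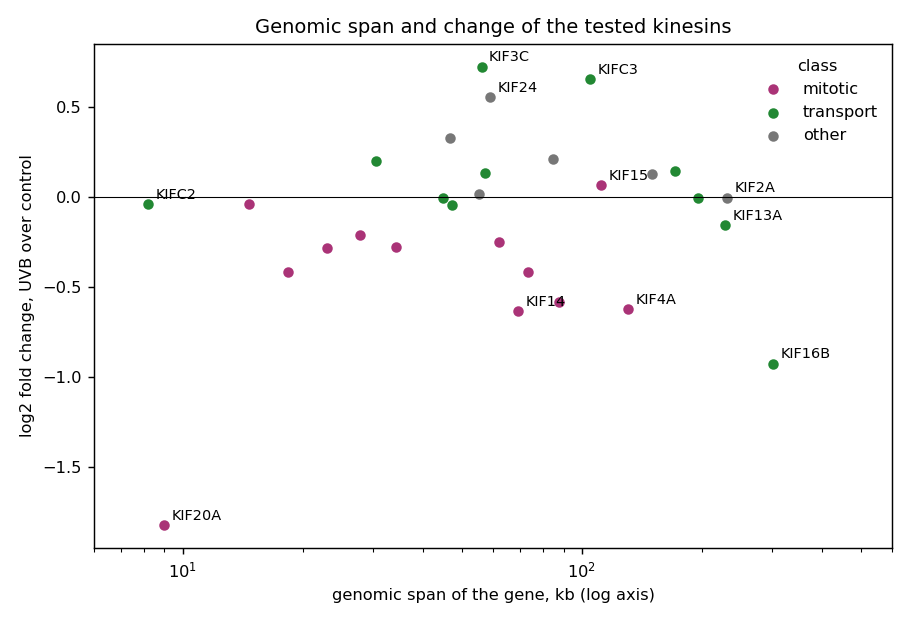
Log2 fold change of UVB over control (y axis) against the genomic span in kb (x axis, log axis) of the 29 tested kinesins, one point a gene, coloured by class. KIF20A lies at 9.0 kb and KIF16B at 301.3 kb, and falls and rises occur at both short and long spans.

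Among kinesins with other roles, a pair rose. KIF24, a centriolar kinesin that restrains cilium formation (ENSG00000186638, chromosome 9, 34252381 to 34311371, GRCh38), measured 4.17, 5.05 and 4.81 FPKM in controls and 7.22, 7.07 and 7.64 FPKM after UVB. The groups were clearly apart, with a log2 fold change of 0.55 ± 0.075 (SE, limma adjusted p = 0.00336). KIF7, a regulator of Hedgehog signalling at the tip of the cilium, measured 1.23, 1.44 and 1.11 FPKM in controls and 1.66, 2.03 and 1.81 FPKM after UVB. KIF7 passed at a log2 fold change of 0.33 (limma adjusted p = 0.0386). Its call ended under 8 of 13 alternatives, including every loss of 1 library except control replicate 2 (adjusted p up to 0.111), and 11.8% of its exon length is shared with TICRR on the opposite strand.

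KIF2A, a microtubule depolymerase of spindle poles and interphase cells, was the most abundant of this set, at 11.3, 11.3 and 11.6 FPKM in controls and 10.6, 11.9 and 11.6 FPKM after UVB. It did not pass, with a 95% interval of the log2 fold change from -0.14 to 0.13. KIF21A, which slows microtubule growth, had a log2 fold change of 0.13, KIF27, linked to cilia, 0.21 and KIF9, linked to motile cilia, 0.02, and none of them passed.

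Another 13 kinesins lay under the expression filter. KIF1A, KIF2B, KIF12, KIF19 and KIF25 were listed at 0 in all 6 libraries. KIF4B, KIF5A, KIF5C, KIF6, KIF21B, KIF26A and KIF26B had between 0 and 141 recovered reads a library. KIF17, a kinesin-2 of cilia and dendrites, had 0, 8 and 14 reads in controls and 57, 49 and 62 reads after UVB. The authors' deposited table gives KIF17 a log2 fold change of 2.83 and an adjusted p of 0.0148. KIF17 did not exceed 0.176 FPKM in any library.

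The authors' deposited table, which tested genes and repeats together, holds 4 kinesins called higher and 8 called lower at an adjusted p under 0.05. Among its 32902 gene rows with a p-value, 4.67% were higher and 3.93% were lower. Those rows were not limited to genes past the expression filter used here, which the 8 lower kinesins all passed. These shares are therefore not a like background for them. The 8 lower ones in the authors' deposited table are KIF20A, KIF16B, KIF14, KIF4A, KIF18A, KIFC1, KIF20B and KIF18B, and the 4 higher ones are KIF3C, KIFC3, KIF24 and KIF17. KIF11, KIF23 and KIF2C did not pass in the authors' deposited table, with adjusted p-values of 0.268, 0.0962 and 0.522. An edgeR test on recovered reads called 4 kinesins higher and 12 lower, and over all genes it called 13.3% higher and 13.3% lower. It called the same 10 mitotic kinesins lower. Groups did not overlap for 10 of 12 tested mitotic kinesins, all lower, where 18.2% of all genes tested were lower without overlap. Of the 11 transport kinesins tested, 5 were higher and 2 lower without overlap, and of the 6 others 3 were higher, where 27.6% of all genes tested were higher without overlap.

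Genes of proteins that work with these motors were examined as lists. The lists were chosen with earlier results of these data known, so their counts are a description and not independent support. Over all tested genes, 17.0% were called higher and 11.0% lower in limma, and 13.3% each way with edgeR. Of 20 partners of mitotic kinesins, all tested, 14 (70.0%) were lower and 1 was higher, with a median log2 fold change of -0.46, and edgeR called 15 lower and 1 higher. CENPE, a kinetochore kinesin outside the symbol rule, went from 8.36 ± 0.297 to 2.88 ± 0.43 FPKM (SD, n = 3 each), at a log2 fold change of -1.28 (limma adjusted p = 0.00035). The spindle proteins HMMR and ASPM fell by 0.97 and 0.93 and the kinase gene AURKA by 0.93 on the log2 scale. Among direct partners, RACGAP1, which pairs with KIF23, fell by 0.42, while PRC1, the partner of KIF4A, had a log2 fold change of -0.40 and did not pass (limma adjusted p = 0.235). NUMA1, which anchors dynein at spindle poles, was the member that rose, by 0.25.

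Among 17 tested partners of transport kinesins, 4 (23.5%) were higher and 3 (17.6%) lower, with a median of 0.13. With edgeR 2 of them were higher and 3 lower. PLEKHM2, which links lysosomes to kinesin-1, rose by 0.47, and KLC2, a kinesin light chain gene, rose by 0.36. KLC3, another light chain gene, had a log2 fold change of 0.36 that passed in limma (adjusted p = 0.0431) but not in edgeR (adjusted p = 0.0676). KIFAP3, the adaptor subunit of kinesin-2, fell by 0.33 on the log2 scale. Of 22 tested genes of dynein and dynactin, the minus-end motor complex, 4 (18.2%) were higher and 2 (9.09%) lower, shares near those over all genes, with a median of 0.084. With edgeR 3 were higher and 3 lower. The light chain gene DYNLL1 fell from 73.6 ± 1.71 to 40.9 ± 1.27 FPKM, NDE1 fell by 0.36 on the log2 scale, and DYNLRB1 and the heavy chain gene DYNC1H1 rose by 0.44 and 0.30.

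Of 23 genes of intraflagellar transport, 3 were higher and 3 lower (13.0% each), near the shares over all genes, with a median of 0.027. With edgeR 3 were higher and 5 lower. IFT46 rose by 0.41, whereas IFT80, TTC30B and TTC30A fell by 0.45, 0.40 and 0.32 on the log2 scale. Of 22 transcription regulators of the cell cycle, 7 (31.8%) were higher and 1 (4.55%) lower, with a median of 0.12, while edgeR called 6 higher and 4 lower. TFDP1, a partner of E2F factors, rose by 0.60, RBL1, a relative of the retinoblastoma protein, by 0.37 and E2F2 by 0.32. FOXM1, an activator of mitotic genes, measured 16.8 ± 0.556 and 14.4 ± 1.32 FPKM and did not pass (log2 fold change -0.22, limma adjusted p = 0.0689, edgeR adjusted p = 0.034). RBL2 was the member that fell in limma, by 0.31, and MYBL2, another such activator, rose by 0.24.

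**Figure D5:**
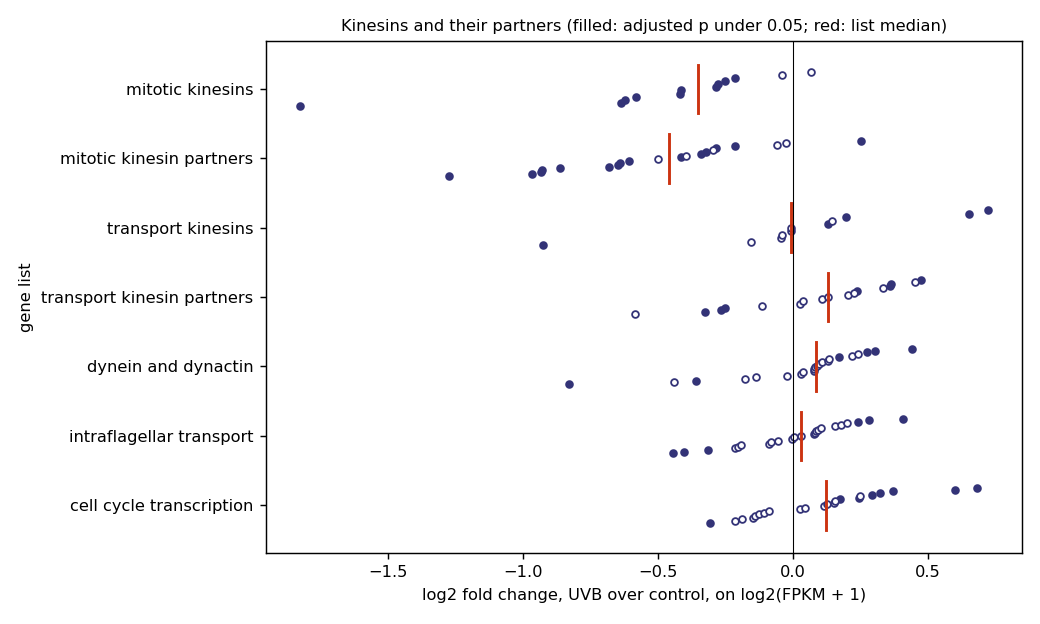
Log2 fold change of UVB over control on log2(FPKM + 1) (x axis) of each tested gene in 7 lists (y axis), with filled points for adjusted p under 0.05 and a red line at the list median. The mitotic kinesins and their partners have medians of -0.35 and -0.46, and the other lists lie between -0.0076 and 0.13.

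Between 66272443 and 88484020 reads were assigned per library. All 9 keratinocyte markers passed 0.5 FPKM, with a summed level of 777 to 955 FPKM in controls and 496 to 582 FPKM after UVB. Summed markers of other cells were low and, except for those of ciliated cells (6.34 to 7.39 and 6.80 to 7.34 FPKM), higher after UVB. They were 4.40 to 4.79 and 7.56 to 8.09 FPKM for melanocytes, with 2 of 7 markers, MITF and PMEL, past 0.5 FPKM and TYR at 0. They were 0.770 to 1.06 and 1.79 to 1.97 FPKM for fibroblasts (1 of 7, COL1A1). For leukocytes they were 10.7 to 12.2 and 18.8 to 26.4 FPKM (2 of 6, CD14 and CD68), with CD3E at 0. Endothelial markers summed to 4.26 to 5.21 and 5.91 to 8.96 FPKM (1 of 4, CDH5), with KDR at 0. Neuronal markers summed to 5.75 to 7.10 and 8.23 to 22.2 FPKM, with TUBB3 the 1 of 5 past 0.5 FPKM and SNAP25 at 0. All samples are of the same cell line, and sums that rest on so few genes do not show that other cells were present. Whether other cells had a part in the changes of transport kinesins was not tested.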

How the data were processed

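Gene levels of 6 HaCaT libraries, 3 control and 3 UVB, were analysed from the FPKM values the authors deposited, with groups set by the titles. Per the submitters' processing notes, HISAT2 2.0.5, StringTie, DESeq and hg38 (GRCh38) are named, in roles not stated. What counted the reads, on which strand and with which annotation is not given in the sources used here. The gene identifiers and 58643 of the 58735 gene lengths are those of GENCODE release 29, which gave coordinates, spans and shared exons. Read counts that the authors deposited for 74 repeat copies were used to scale FPKM, so that the assigned reads per library could be computed. By these totals 100% of non-zero gene FPKM values gave whole reads within a tolerance of 0.01. A recovered unit is treated as 1 read, which is not known. The log2 fold changes and adjusted p-values that the authors deposited were used only as a description.

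The 14921 genes averaging 0.5 FPKM or more were fitted in limma 3.58.1 (R 4.3.3, trended eBayes) after log2(FPKM + 1), and p-values were adjusted over all of them. Folds between means are of FPKM. Alternatives were a pseudocount of 0.1, other filters, 2 rescalings, edgeR 4.0.16 (quasi-likelihood, TMM) on recovered reads, a block on replicate number and the omission of each library in turn. Ratios were tested by exact permutation in scipy 1.17.1. The members, classes and lists were chosen with earlier results of these data known. Values are named in full for tested mitotic kinesins, other kinesins called and the most abundant of each class, and up to 4 called partners a list with the largest change. Other genes named were chosen after their values were seen. A gene that this rule names in the list of cell cycle regulators is not reported here. Replicates of a group differed by far more than sampling noise, so each counts once.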

Additional observations from a re-analysis of the deposited data

How the results depend on the processing

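Of the 11 kinesins called lower, 8 kept their call under every one of the 13 alternatives run, as did 3 of the 6 called higher, KIF3C, KIFC3 and KIF24. KIF11, KIF20B and KIF2C lost theirs under some, KIF1C, KIF3B and KIF7 under more, and KIF13A gained one under 3. The mitotic kinesins called lower numbered 10 under both rescalings, edgeR and a pseudocount of 0.1, 9 without a filter, and 7 to 9 without 1 library. None was called higher under any of these. Their median of -0.352 became -0.2879 without a filter or with KIF2A counted as mitotic. It was -0.4173 with quantile normalization, -0.4041 with median rescaling and -0.4153 with edgeR, which adds no FPKM to the values. The median over all genes moved as well, from 0.042 to 0.0124, -4.12e-05 and 0.00038 under these 3 settings in turn. The transport kinesins called higher numbered 2 rather than 4, and those called lower 2 rather than 1, with quantile normalization, median rescaling and edgeR. Kinesins called higher numbered 3 with median rescaling and 4 with quantile normalization or edgeR, each beside 12 lower. The test as reported had 6 higher and 11 lower. Over all genes that test called 17.0% higher and 11.0% lower, and edgeR 13.3% each way. Shares over all genes under the other settings are not given here, so these shifts are not read as particular to kinesins. Leaving out 1 library gave 3 to 5 kinesins called higher and 2 to 3 transport kinesins called higher. The cause was not tested. With the replicate block 3 kinesins and 2 transport kinesins were called higher and 11 kinesins lower. Samples of one number were not shown to be paired: their deviations from group means correlated at 0.0481, 0.0221 and 0.0298, each highest for its own number, a hint from the data and not from the design. The 13 kinesins under the filter had few or no recovered reads and were not tested, and intervals cover the spread between these libraries only.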
